A study of Mus musculus with 30 samples.

Results

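Testis cells enriched for germ cells were sequenced from mice without a working Prdm9 gene, at 12 and at 16 days post partum (dpp). Of the 30 libraries of the study, the 10 labelled Prdm9-/- at these ages were chosen: 5 at 12 dpp and 5 at 16 dpp. All came from male mice of a C57BL/6J background that carries less than 10% 129S1/SvImJ, received no treatment that the labels name, and differed from each other by age only. The labels name neither which part of the gene was deleted nor the tissues in which it was. Each library was made from polyadenylated RNA. The header of the deposited table holds a number for each library that was read here as its litter. This number differs among the 10, so age was compared between animals and, on that reading, never within a litter. Seminiferous tubules were digested with Liberase and washed to remove interstitial cells, and the cells obtained were enriched, not sorted, so that Sertoli and other somatic cells remained. For reference, 10 non-mutant libraries of the same ages and background were used: 1 Prdm9+/+ and 4 Prdm9+/- at 12 dpp, and 2 Prdm9+/+ and 3 Prdm9+/- at 16 dpp. The values are TPM, which give each gene's share of a library and keep no read depth, so depth is unknown. The comparison asks what still changes between these ages when germ cells lack PRDM9, and what changes in the somatic cells that remain.

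PRDM9 is a histone methyltransferase with a zinc finger array that binds DNA and marks the places where meiotic double-strand breaks are made. In male mice without it, breaks form at other places, homologous chromosomes pair and synapse incompletely, and spermatocytes are lost at a stage resembling pachytene. In the first wave of spermatogenesis germ cells advance nearly in step from spermatogonia through leptonema and zygonema to pachynema. Over the same days Sertoli cells stop dividing and close the blood-testis barrier, and the Leydig cells between the tubules shift from their fetal to their adult form.

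Prdm9 (ENSMUSG00000051977, chromosome 17, 15543079 to 15564354 in GRCm38) was read first, since it checks the labels. At 12 dpp the 5 libraries labelled Prdm9-/- held 7.03, 6.34, 6.83, 8.16 and 19.2 TPM. At 16 dpp they held 10.9, 6.89, 9.78, 12.8 and 9.68 TPM. Non-mutants held 18.04 ± 5.64 (SD, n = 5) at 12 dpp and 25.05 ± 5.795 (SD, n = 5) at 16 dpp. The 12 dpp library labelled Prdm9-/- replicate 5 thus lay at the level of non-mutants, against its label, while the other 9 lay below the lowest non-mutant of their age. Reads from any part of the gene that remains count toward this value, so it does not show whether PRDM9 was made. Below, the counts over all rows are also given without that library and without 12 dpp replicate 2, and list counts above 3 are so given where leaving out a library moved them by more than 1.5 times. Replicate 2 stood apart from the other 9 on the second principal component (17.1% of the variance). The first component (31.6%) held all 12 dpp libraries on one side and all 16 dpp libraries on the other. Library serial numbers in the labels run in blocks by age, so age and the order of processing cannot be told apart.

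The label was checked against cell type markers. Spermatocyte genes were high in all 10 libraries, with Sycp3 at 116 to 222 TPM at 12 dpp and 293 to 464 at 16 dpp. Sertoli cell genes were as abundant: Cldn11, a tight junction protein of Sertoli cells, held 583 to 675 and 566 to 646 TPM. Genes of spermatids, which do not exist at these ages, were low: 4 of 17 list members passed the filter on level, and Prm2, Sun5, Txndc8 and Hils1 were listed at 0 in all 10 libraries.

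Between 12 and 16 dpp, 3083 of 17784 rows tested changed in Prdm9-/- libraries (17.3%, limma on log2(TPM + 1), Benjamini-Hochberg adjusted p under 0.05). Of these, 1636 rose (9.20%) and 1447 fell (8.14%). Rows tested were over 1 TPM in at least 5 of the 10 libraries. By this filter 52 rows were tested only through the 16 dpp libraries, since no 12 dpp library was over 1 TPM, and 49 of them were called. In the other direction there were 15 such rows, and 15 were called. Most changes were small: 222 rows rose and 88 fell by more than 1 on the log2 scale, and the median over all rows tested was -0.002. The percentages after list counts below are to be read against these shares of all rows, and the list medians against this median. In 2399 rows (13.5%) the 5 libraries of one age lay wholly above or below the 5 of the other. Without the 12 dpp libraries 2 and 5, a choice made after seeing the data, 1068 rows rose and 721 fell, and without replicate 5 alone 1251 rose and 1036 fell. Because the RNA comes from a mixture of cells, fewer cells of a type and less RNA per cell cannot be told apart in any result below. All changes are given as differences of log2(TPM + 1), 16 against 12 dpp, which understate the change of low genes.

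**Figure D1:**
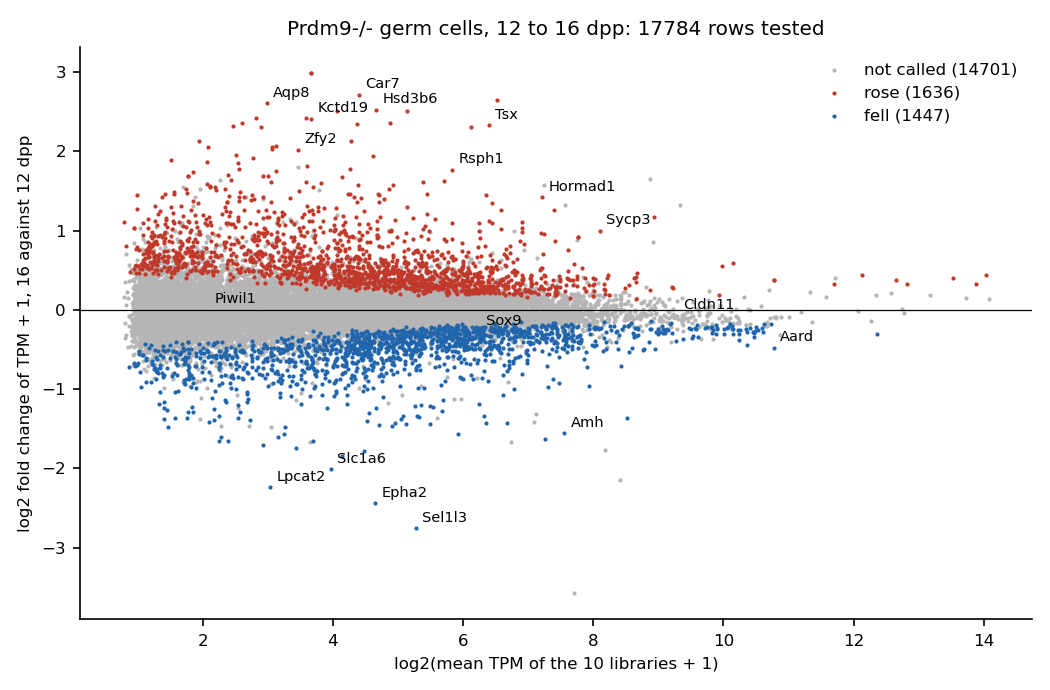
Log2 fold change of TPM + 1 from 12 to 16 dpp in Prdm9-/- libraries (vertical axis) against log2 of the mean TPM of the 10 libraries plus 1 (horizontal axis), 1 point per row tested. Red points rose (1636), blue points fell (1447) and grey points were not called (14701). Tsx, Car7 and Aqp8 lie among the largest rises, and Sel1l3 and Epha2 are the lowest of the labelled genes.

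Stem and progenitor genes of the germ line were lower at 16 dpp. In the list of undifferentiated spermatogonia, 9 of 20 members tested fell (45%) and 1 rose, with a median of -0.48 on the log2 scale. Zbtb16, the PLZF transcription factor of these cells, held 31.7, 25.01, 32, 27.7 and 34.4 TPM at 12 dpp and 27.6, 18.2, 16.6, 20.1 and 12.8 at 16 dpp, a change of -0.67 (SE 0.16, adjusted p 0.0142) by limma. The ages overlapped, since 16 dpp replicate 1 lay above the lowest 12 dpp library. Ret, which encodes the receptor for the Sertoli cell factor GDNF, fell by 0.68 (adjusted p 0.00258), and Gfra1, its co-receptor, by 0.73 (adjusted p 0.0046). Ccnd2, a G1 cyclin, held 64.2, 65.4, 52, 82.4 and 70.9 TPM at 12 dpp and 44.6, 35.5, 37.6, 44.3 and 32.7 at 16 dpp, and every 16 dpp library lay below every 12 dpp library. Egr4 and Sdc4 fell with changes of -0.76 and -0.71. Id4, a marker of the stem cell pool that spermatocytes also express, was the 1 member that rose, from 13.98, 7.42, 18.5, 16.1 and 17.6 TPM at 12 dpp to 24.7, 30.3, 26.3, 24.4 and 22.2 at 16 dpp, 0.81 (SE 0.196, adjusted p 0.0139). With the 12 dpp libraries 2 and 5 left out, 8 members fell.

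Among 13 genes of differentiating spermatogonia, 3 fell (23.1%) and 2 rose (15.4%), with a median of -0.05. Those that fell were Dnmt3b, a DNA methyltransferase (-0.51), Sohlh1, a bHLH factor of differentiation (-0.495), and Dmrt1, a factor that holds spermatogonia out of meiosis and is also made by Sertoli cells (-0.31). Kit, the receptor that marks differentiating spermatogonia, held 50.02 ± 4.78 TPM (SD, n = 5) at 12 dpp and 46.8 ± 5.55 at 16 dpp, and its difference did not pass the test (adjusted p 0.506, limma).

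Genes of meiotic entry rose in part. Of 16 members of the retinoic acid and meiotic entry list, 7 rose (43.8%) and none fell by limma, with a median of 0.07. Without 16 dpp replicate 1, 3 or 4, each left out alone, 4 rose. Aldh1a2, a retinal dehydrogenase that makes retinoic acid and is active in spermatocytes, held 54.9, 30.7, 66.6, 48.8 and 64.8 TPM at 12 dpp and 111, 111, 110.05, 99.5 and 138 at 16 dpp, 1.13 (SE 0.17, adjusted p 0.0013). Cyp26a1, an enzyme that degrades retinoic acid, rose by 1.18 from a low level of 3.92 ± 1.33 TPM (SD, n = 5). Meioc and Ythdc2, partners that hold germ cells in meiotic prophase by acting on RNA, rose by 0.79 and 0.61. Rec8, a meiotic cohesin, rose by 0.54. Stra8, the retinoic acid target that starts meiosis, held 173 ± 16.7 TPM at 12 dpp and 204 ± 14.8 at 16 dpp (SD, n = 5 each). Its change of 0.24 lay at the threshold (adjusted p 0.0494, limma) and was lost in 16 of 20 alternatives, with adjusted p from 0.0305 to 0.678.

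In the S phase list 3 of 27 members rose (Ccne2, Gins1 and Prim1), which at 11.1% is near the share of all rows, none fell, and the median was 0.11. The calls of Prim1 and Gins1 were lost in 11 and 5 of 20 alternatives. In the G2-M list 10 of 30 rose (33.3%), none fell, and the median was 0.101. Only 6 rose without 12 dpp replicate 4 or 5, without 16 dpp replicate 1, 2 or 5, or without the 12 dpp libraries 2 and 5. Whether the lists differ was not tested. Ccnb3, an X-linked cyclin expressed in early meiotic prophase, held 13.4, 8.02, 20.4, 13.2 and 13.8 TPM at 12 dpp and 36.2, 47.4, 25.8, 32.1 and 40.3 at 16 dpp, so every 16 dpp library lay above every 12 dpp library (1.37 (SE 0.205, adjusted p 0.00106)). Cdk1, the kinase of the division phase, rose by 0.55, and Bub1 and Cdc20, of the spindle checkpoint, by 0.53 and 0.51. Ccna1, the cyclin of late pachytene and the meiotic division, was at or below 0.83 TPM in all 10 libraries and was not tested.

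Genes of double-strand break formation and repair rose together. Of 33 members, 19 rose (57.6%, against 9.20% of all rows) and none fell by limma, with a median of 0.47, and 18 of the 33 had ages that did not overlap, all of them higher at 16 dpp (background 7.22% higher and 6.27% lower). In the fit without the 12 dpp libraries 2 and 5, 17 rose. Spo11, the enzyme that makes the breaks, held 6.98, 4.37, 9.51, 5.45 and 8.59 TPM at 12 dpp and 17.6, 18.7, 12.9, 14.8 and 15.6 at 16 dpp. All 16 dpp libraries lay above all 12 dpp libraries, and the change was 1.12 (SE 0.18, adjusted p 0.00147). Rad51ap2 held 6.22, 3.01, 8.11, 6.94 and 5.85 TPM at 12 dpp and 16.3, 28.5, 13.9, 17.9 and 24.02 at 16 dpp, and its change of 1.595 (SE 0.23, adjusted p 0.00083) was the largest in the list. Meiob, a single-strand DNA binding protein of meiotic recombination, held 9.49, 4.52, 20.8, 15.2 and 15.8 TPM at 12 dpp and 27.3, 56.6, 22.3, 25.5 and 52.4 at 16 dpp (1.46 (SE 0.36, adjusted p 0.015)). Cntd1, needed to mature crossovers, held 8.42, 5.3, 13, 10.03 and 10.5 TPM and then 23.9, 31.3, 21.7, 26.1 and 32.3 TPM (1.46 (SE 0.19, adjusted p 0.000505)). The ages did not overlap for any of these genes.

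Further members of the list rose. Msh4 and Msh5, which form the complex that holds crossover intermediates, rose by 1.09 and 0.76, and the helicase gene Hfm1 by 1.002. Dmc1, the meiosis-specific recombinase, held 38.6, 34.4, 44.1, 40.8 and 41.6 TPM at 12 dpp and 58.6, 77.8, 62.1, 54.4 and 83.8 at 16 dpp (0.73 (SE 0.12, adjusted p 0.00156)). Mei4 (0.004) and Rec114 (0.01), partners of SPO11 in break formation, did not pass the test, nor did the general repair gene Brca2 (0.13) or the late crossover gene Mlh3 (0.09).

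The promoters of the 4 members of this list and of the synaptonemal complex list with the largest rises and an entry in the RefSeq promoter table are shown, because these genes moved together and the rise of Mybl1, described below, concerns a factor known to bind such promoters. Each runs from 250 bases before to 50 bases after the start of the gene, 5′ to 3′ in the direction of the gene, in GRCm38.p6 coordinates. Capitals mark matches on either strand to the letters CAACNG bound by MYB factors or, with another first base, TAACNG. A match to the former can also be an E-box, with the letters CANNTG.
Rad51ap2 (chr12:11455805-11456104, plus strand): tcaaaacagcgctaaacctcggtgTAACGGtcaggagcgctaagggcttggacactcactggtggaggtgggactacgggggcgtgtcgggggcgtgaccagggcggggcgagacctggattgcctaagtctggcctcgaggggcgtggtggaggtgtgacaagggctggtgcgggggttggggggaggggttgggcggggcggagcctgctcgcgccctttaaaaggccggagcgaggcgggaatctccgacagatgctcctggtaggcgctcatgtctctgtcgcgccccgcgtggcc
Cntd1 (chr11:101278953-101279252, plus strand): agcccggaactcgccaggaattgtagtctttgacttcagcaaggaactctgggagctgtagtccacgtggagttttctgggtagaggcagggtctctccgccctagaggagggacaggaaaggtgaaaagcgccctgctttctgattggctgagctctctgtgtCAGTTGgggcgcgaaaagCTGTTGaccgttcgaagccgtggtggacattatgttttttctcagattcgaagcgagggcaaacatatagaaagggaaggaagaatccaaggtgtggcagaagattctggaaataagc
Hormad1 (chr3:95559427-95559726, plus strand): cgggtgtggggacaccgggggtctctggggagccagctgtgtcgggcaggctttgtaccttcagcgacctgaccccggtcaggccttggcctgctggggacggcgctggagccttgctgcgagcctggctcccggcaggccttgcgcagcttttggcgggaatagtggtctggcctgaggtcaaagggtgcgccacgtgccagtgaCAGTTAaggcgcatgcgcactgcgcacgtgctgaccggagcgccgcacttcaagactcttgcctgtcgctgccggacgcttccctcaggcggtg
Msh4 (chr3:153904842-153905141, minus strand): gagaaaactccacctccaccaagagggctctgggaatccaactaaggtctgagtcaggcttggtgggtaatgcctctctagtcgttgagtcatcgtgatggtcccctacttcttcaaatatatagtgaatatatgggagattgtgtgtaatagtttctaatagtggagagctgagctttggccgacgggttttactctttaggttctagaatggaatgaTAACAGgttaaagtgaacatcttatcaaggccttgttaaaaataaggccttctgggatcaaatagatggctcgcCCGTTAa
Cntd1 and Msh4 hold 2 matches each, and Rad51ap2 and Hormad1 hold 1. Of the 51 genes that rose in the recombination, synaptonemal complex and pachytene lists, 40 had an entry, with 48 promoters, of which 33 (68.8%) held a match. Among all tested genes with an entry (10972 genes, 14010 promoters) the share was 45.2%, among genes that rose 50.3% and among genes that fell 41.2%. The NF-Y letters CCAAT stood in 37.5% of the promoters of the same 40 genes, against 37.9% of all. The letters GTTGCNA, a part of the X-box bound by RFX factors, stood in 8.33%, against 9.31%. A match to such short letters is a description of the sequence and shows no binding. Members of the recombination, synaptonemal complex and pachytene lists that did not rise were not counted. Whether the matches go with the rise was therefore not tested, nor was any part of the MYB factor gene Mybl1, described below.

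Genes of the chromosome axis and the synaptonemal complex, the structure that joins homologous chromosomes, rose together. Of 21 members, 17 rose (81%) and none fell by limma, with a median of 0.64, and the summed level of the list was 859 to 1318 TPM at 12 dpp and 1694 to 2237 TPM at 16 dpp. Without the 12 dpp libraries 2 and 5, 15 rose, and in the fit over all 30 libraries 8 did. Hormad1, an axis protein that marks unsynapsed chromosomes, held 76.4, 49.1, 98.97, 91.6 and 83.1 TPM at 12 dpp and 181, 276, 158, 190.5 and 266 at 16 dpp (1.42 (SE 0.19, adjusted p 0.000636)). Sycp3, a core protein of the axis, held 162, 116, 222, 202 and 213 TPM at 12 dpp and 321, 464, 293, 321 and 413 at 16 dpp (0.998 (SE 0.17, adjusted p 0.00248)). In both genes the lowest 16 dpp library lay above the highest 12 dpp library, and 12 dpp replicate 2 was the lowest of its age.

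The other layers of the complex moved alike. Sycp2, the partner of SYCP3, rose by 1.09, Sycp1, the transverse filament, by 0.96, and the central element genes Syce3, Tex12, Syce1 and Syce2 by 0.64, 0.55, 0.53 and 0.34. The meiotic cohesin genes Rad21l, Smc1b, Rec8 and Stag3 rose by 0.74, 0.71, 0.54 and 0.396. Ccdc155, which encodes KASH5 and couples telomeres to dynein, held 10.8, 5.39, 9.11, 9.4 and 9.2 TPM at 12 dpp and 17.5, 16.7, 17.8, 17.9 and 20.1 at 16 dpp (0.99 (SE 0.15, adjusted p 0.000983)). Spdya and Majin, also at meiotic telomeres, rose by 0.96 and 0.83. The members that did not pass the test were Trip13 (0.01), Sun1 (0.18), Terb1 (0.52) and Terb2 (0.62).

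Of the genes that sense unsynapsed chromosomes and signal through ATR, 8 of 18 rose (44.4%) and none fell by limma, with a median of 0.17, and 5 rose without 16 dpp replicate 2 or with a replicate block. Atr, the kinase itself, held 67.1, 57.1, 76.8, 68.9 and 77.2 TPM at 12 dpp and 103, 114, 86.02, 101 and 102 at 16 dpp (0.54 (SE 0.09, adjusted p 0.0022)), with no overlap. H2afx, the histone variant it phosphorylates, rose by 0.53, Mdc1, which spreads that mark along chromosomes, by 0.51 and Topbp1 by 0.28. Hormad2 rose by 0.89. Brca1 (0.07), Chek1 (0.09) and Atm (-0.08) did not pass the test.

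Of 22 members of the p53 and apoptosis list 3 rose, which at 13.6% is near the 9.20% of all rows, and none fell by limma, with a median of 0.06 that turned to -0.008 without 16 dpp replicate 1. Cdkn1a, which encodes the cell cycle inhibitor p21, held 12.8, 9.62, 15.9, 15.1 and 15.96 TPM at 12 dpp and 19.12, 26.1, 31.4, 27.04 and 29.3 at 16 dpp (0.89 (SE 0.15, adjusted p 0.00229)), and all 16 dpp libraries lay above all 12 dpp libraries. Sesn2 rose by 0.47 and Pmaip1, the BH3-only protein NOXA, by 0.41. The call of Pmaip1 was lost in 12 of 20 alternatives, with adjusted p from 0.0263 to 0.123. The apoptosis genes Bax (-0.24), Bbc3 (0.097) and Fas (-0.39) and Trp53 itself (-0.02) did not pass.

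**Figure D2:**
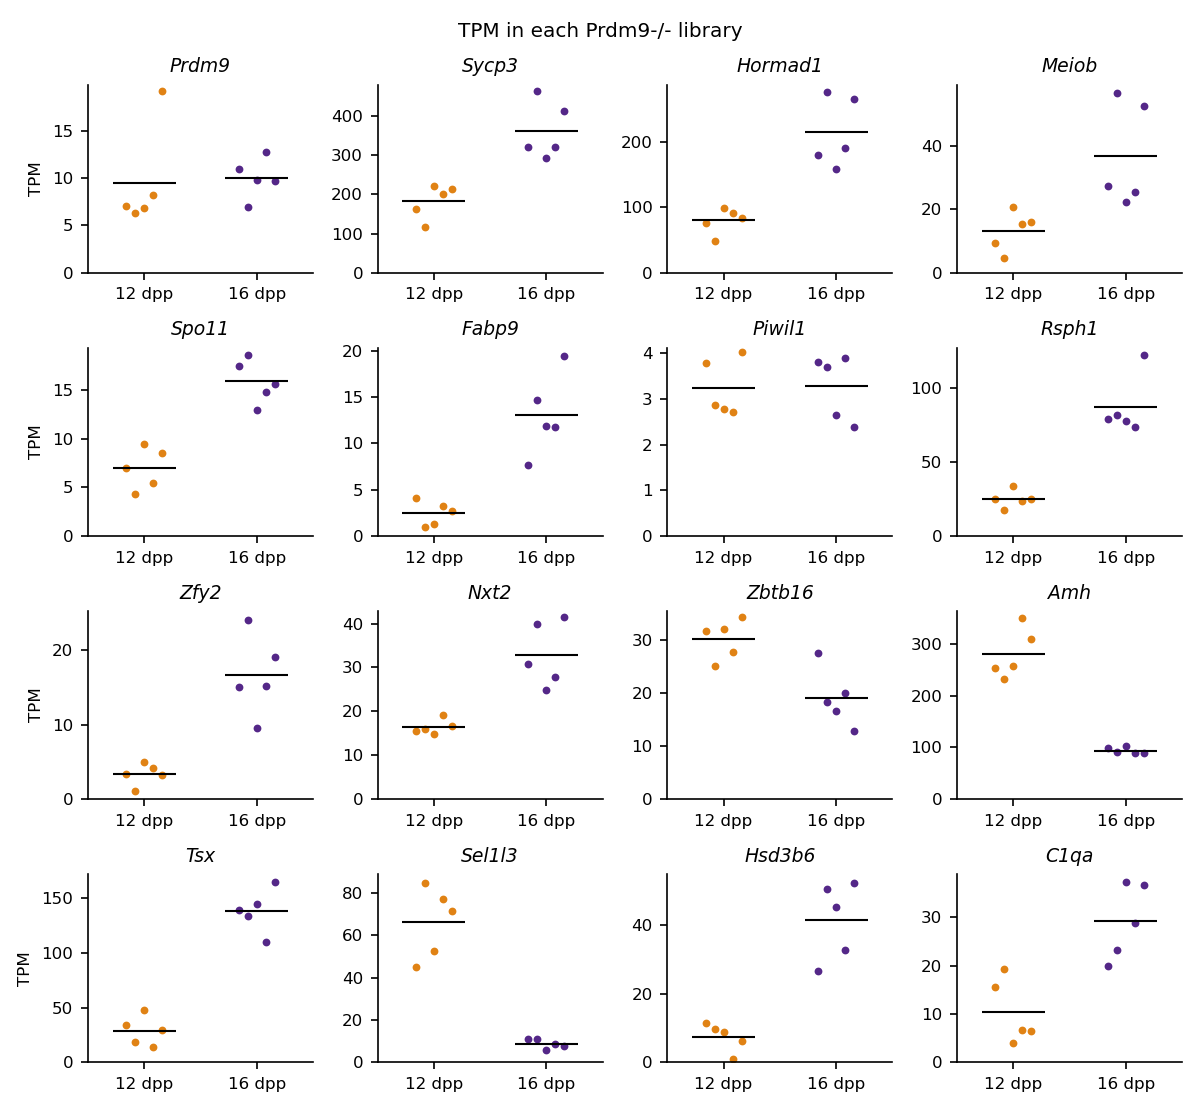
TPM (vertical axis, from 0) of 16 genes in each Prdm9-/- library at 12 dpp (orange) and 16 dpp (violet), with the mean of the 5 libraries of each age as a bar. Prdm9 in 12 dpp replicate 5 stands at 19.2 TPM above the other 4, Piwil1 overlaps between the ages, and Amh and Sel1l3 at 16 dpp lie below every 12 dpp library.

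Genes of pachytene and diplotene spermatocytes rose in part and from low levels. Of 34 members 23 passed the filter on level, and of these 15 rose (65.2%) and none fell by limma, with a median of 0.82. One of the 15, Adam2, was over 1 TPM in no 12 dpp library and so was tested only through the age at which it is high. Without it 14 of 22 rose, with a median of 0.74. The 11 others, among them Pgk2, Acr, Adam3, Ccna1 and Hist1h1t, stayed too low to be tested. Fabp9, a fatty acid binding protein of spermatocytes, held 4.08, 0.95, 1.34, 3.19 and 2.66 TPM at 12 dpp and 7.66, 14.7, 11.9, 11.8 and 19.4 at 16 dpp (2.07 (SE 0.28, adjusted p 0.000604)), and the ages did not overlap. Ybx2, a germ cell RNA-binding protein that stores messengers, held 31.96, 19.2, 27.98, 26.2 and 22.4 TPM and then 68.8, 54.3, 54.9, 62.7 and 57.2 TPM (1.21 (SE 0.12, adjusted p 0.000138)). Hspa2, the heat shock protein of spermatocytes, held 55.4, 47.8, 52.6, 51.3 and 54.3 TPM at 12 dpp and 96.6, 116, 85.2, 95.4 and 104 at 16 dpp (0.91 (SE 0.08, adjusted p 8.03e-05)). Brdt, a testis bromodomain protein, rose by 1.13, Pdha2, the autosomal retrocopy of an X-linked pyruvate dehydrogenase gene, by 0.999, and Mybl1, which encodes A-MYB, an activator of the pachytene program, by 0.57. Mybl1 held 14.8, 15.6, 21.8, 15.7 and 20.6 TPM at 12 dpp and 25.1, 30.5, 24.99, 28.3 and 24.1 at 16 dpp.

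Not all known pachytene genes moved. Piwil1, the PIWI protein of pachytene piRNAs, held 3.79, 2.86, 2.78, 2.72 and 4.04 TPM at 12 dpp and 3.82, 3.7, 2.64, 3.89 and 2.39 at 16 dpp, and the ages overlapped fully (0.01 (SE 0.15, adjusted p 0.968)). Tcfl5 (0.18), Crem (0.07), Tbpl1 (0.06) and Cyct (-0.06) did not pass either. Ldhc, the lactate dehydrogenase of spermatocytes, held 4.42, 0.19, 1.47, 1.16 and 1.55 TPM at 12 dpp and 3.73, 5.3, 3.2, 4.31 and 6.09 at 16 dpp. Its change of 1.15 (SE 0.32, adjusted p 0.0257) did not hold in 8 of 20 alternatives, among them those without 12 dpp replicate 4, 16 dpp replicate 2 or 16 dpp replicate 5, with adjusted p from 0.00312 to 0.129.

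Each pachytene gene was also set against the median of the synaptonemal complex list in the same library, which rose by itself. On that scale 3 of 23 genes were higher in every 16 dpp library than in any 12 dpp library, Fabp9 by 1.43 (SE 0.29), Ybx2 by 0.57 (SE 0.15) and Adam2, which the filter admitted only through 16 dpp. Of all rows tested 0.557% did the same. Cdc25c, Cyct, Tbpl1, Crem and Tcfl5 lay lower in every 16 dpp library, as did 54.3% of all rows. The remaining 15 overlapped.

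Of the piRNA pathway 5 of 24 rose (20.8%; Mybl1, Mov10l1, Gpat2, Rnf17 and Tdrkh), none fell, and the median was 0.08. Without 12 dpp replicate 4, 3 rose, without the 12 dpp libraries 2 and 5, 2 rose, and in the fit over all 30 libraries 1 did. Of 105 piRNA loci 3 passed the filter on level, and 1 rose at the threshold (pi-6-qF3-3040, 0.51 (SE 0.15, adjusted p 0.0371), limma), a call lost in 11 of 20 alternatives. Among genes of the axoneme, the core of the sperm tail, 21 of 49 passed the filter, 6 rose (28.6%) and 1 fell, with a median of 0.17. Cfap57, one of the 6, was over 1 TPM in no 12 dpp library, and without it 5 of 20 rose, with a median of 0.11. The 6 became 3 without 16 dpp replicate 1, 4 or 5, or without the 12 dpp libraries 2 and 5. Rsph1, a radial spoke protein, held 24.7, 17.7, 33.7, 23.3 and 24.9 TPM at 12 dpp and 79.1, 82.1, 77.7, 73.9 and 122 at 16 dpp (1.77 (SE 0.16, adjusted p 9.88e-05)), with no overlap between the ages. Cfap43 was the member that fell, from 12.8, 10.1, 12.1, 33.03 and 14.6 TPM to 7.02, 6.61, 5.6, 7.02 and 6.68 TPM (-1.08 (SE 0.24, adjusted p 0.00921)). Its value in 12 dpp replicate 4 lay far above the other 4, and the call held without that library. Of 7 autosomal retrogenes with X-linked parents 2 rose (28.6%), Pdha2 and Tktl2 (0.92). In the spermatid list Spaca1, an acrosomal membrane protein, rose by 0.85 from 3.11 ± 0.649 TPM (SD, n = 5).

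**Figure D3:**
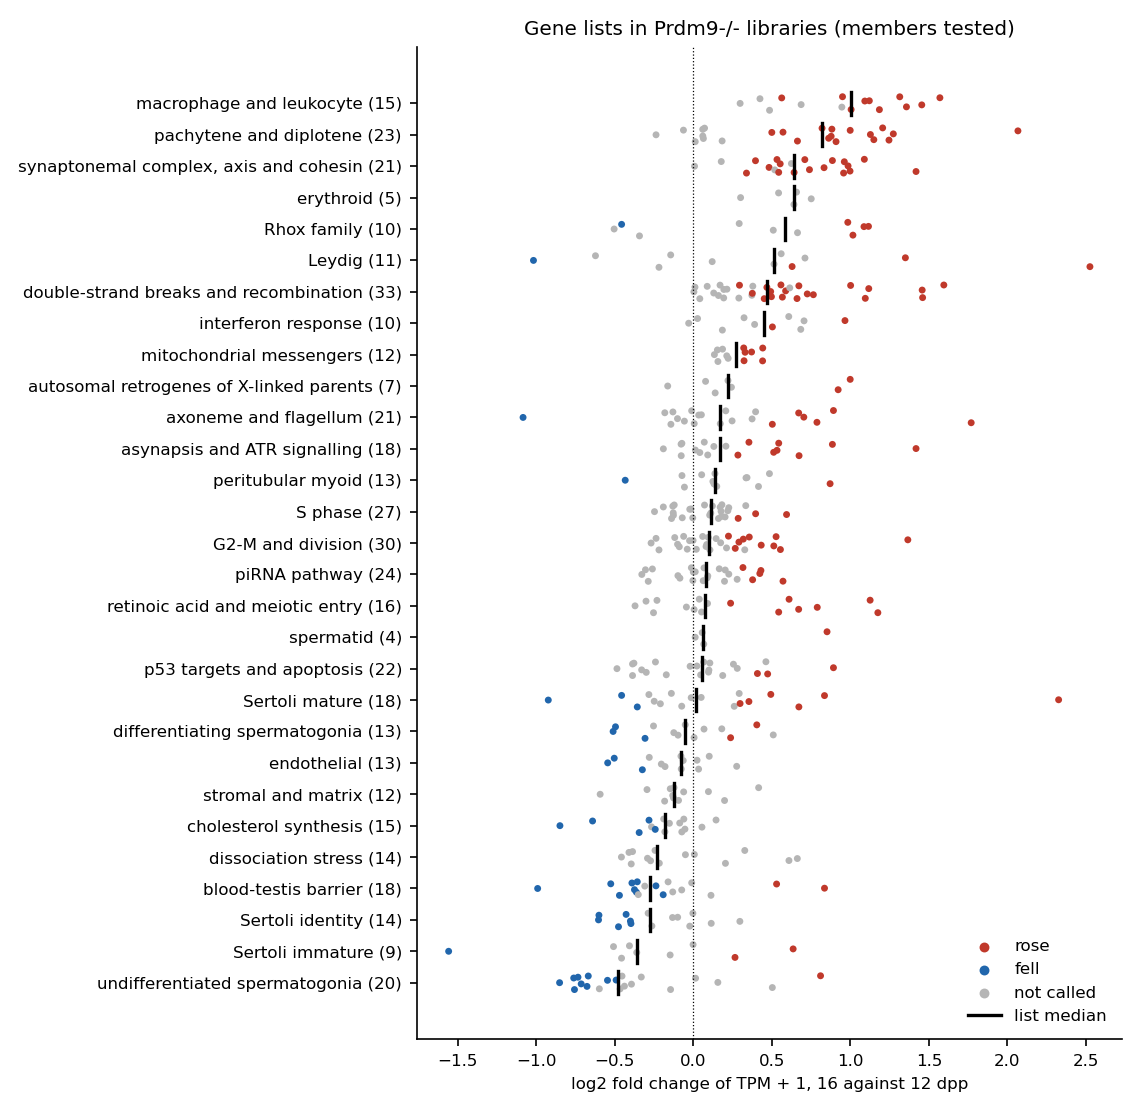
Log2 fold change of TPM + 1 from 12 to 16 dpp (horizontal axis) for the tested members of 29 gene lists, ordered by their median, with the number of tested members in brackets. Red points rose, blue points fell, grey points were not called, and the bar is the list median. The macrophage, pachytene and synaptonemal complex lists lie highest and the undifferentiated spermatogonia and Sertoli immature lists lowest.

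Genes of the sex chromosomes are silenced in normal pachytene spermatocytes. In these libraries 144 of 666 X-linked rows tested rose (21.6%, against 9.20% of all rows) and 60 fell (9.01%, against 8.14%), with a median of 0.07. By more than 1 on the log2 scale 52 X-linked rows rose and none was called as fallen, against 222 and 88 of all 17784 rows. The lowest X-linked change, -2.14, was not called. When the 12 dpp libraries 2 and 5 were left out, 111 rose and 26 fell, and without 16 dpp replicate 5, 38 fell. Only through the 16 dpp libraries did 4 of the 144 pass the filter. Scml1, a polycomb-like germ cell gene, rose by 1.68 (adjusted p 0.000138, limma) from a mean of 7.29 to 26.1 TPM. Pet2 held 13.8, 7.72, 16.6, 13.01 and 15 TPM at 12 dpp and 34.3, 43.8, 29.9, 36.9 and 41.1 at 16 dpp (1.45 (SE 0.17, adjusted p 0.000326)). Nxt2, of the messenger export machinery, held 15.5, 16.1, 14.8, 19.12 and 16.7 TPM and then 30.8, 39.8, 24.8, 27.9 and 41.5 TPM (0.94 (SE 0.14, adjusted p 0.000876)). In both genes all 16 dpp libraries lay above all 12 dpp libraries. Scml1 was chosen after its values were seen.

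On the Y chromosome 5 of 13 rows rose (38.5%, against 9.20% of all rows) and none fell by limma. Those named, chosen for being all that rose, were Zfy2, Zfy1, Usp9y, Gm21704 and Rbmy. Only 3 rose without 16 dpp replicate 2 or 5, or without the 12 dpp libraries 2 and 5. Zfy1 and Zfy2 are zinc finger genes whose activity in pachytene is known to kill spermatocytes. Zfy1 held 3.64, 1.27, 3.56, 3.2 and 3.57 TPM at 12 dpp and 11.7, 17.02, 8.31, 12.4 and 12.8 at 16 dpp (1.75 (SE 0.22, adjusted p 0.000427)). Zfy2 held 3.43, 1.16, 5.02, 4.13 and 3.26 TPM and then 15.1, 24.1, 9.56, 15.2 and 19.04 TPM (2.02 (SE 0.27, adjusted p 0.000636)). Their lowest 16 dpp library lay above their highest 12 dpp library, and both had their lowest 12 dpp value in replicate 2. Since the pair is nearly identical in sequence, how reads were divided between them is uncertain. Uty (-0.05) and Ddx3y (0.09), expressed in many tissues, did not pass the test.

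In the X-linked Rhox homeobox cluster 4 of 10 members tested rose (40%) and 1 fell. Rhox2a, Rhox2b, Rhox2d and Rhox2e, near-identical copies whose reads may be divided among them, rose by 1.02, 0.98, 1.12 and 1.09. The call of Rhox2e was lost in 8 of 20 alternatives. Rhox8, expressed in Sertoli cells, held 297 ± 26.8 TPM at 12 dpp and 216 ± 26.1 at 16 dpp (SD, n = 5 each) and fell by 0.46 (adjusted p 0.00367, limma). Rhox5, an androgen target in Sertoli cells, did not pass (0.29 (SE 0.17, adjusted p 0.277)).

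In the somatic cells, genes of Sertoli cell identity were lower at 16 dpp. Of 14 members 6 fell (42.9%) and none rose by limma, with a median of -0.28, and the summed level was 5544 to 6136 TPM at 12 dpp and 4707 to 5327 TPM at 16 dpp. Dhh, the hedgehog ligand that Sertoli cells send to Leydig and peritubular cells, held 138, 157, 113, 149 and 130.1 TPM at 12 dpp and 84.4, 88.3, 92.6, 91.2 and 92.2 at 16 dpp (-0.601 (SE 0.08, adjusted p 0.000636)), with no overlap. Aard and Mro fell with changes of -0.48 and -0.43, Wt1, a transcription factor that maintains the cells, of -0.397, and Kitl, the ligand of KIT, of -0.604. Sox9, which determines Sertoli cells, held 82.4 ± 3.14 TPM at 12 dpp and 68.98 ± 10.4 at 16 dpp (SD, n = 5 each), and its change did not pass (-0.26 (SE 0.09, adjusted p 0.0543)). Fshr (-0.02) and Cst9 (-0.003) did not pass either. Germ cell lists rose in the same libraries, and TPM are shares, so the part of this in the lower somatic values was not tested.

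Amh, the hormone of immature Sertoli cells, fell much further than the identity genes. It held 254, 233, 258, 351 and 309 TPM at 12 dpp and 98.1, 90.6, 102, 88.8 and 89.3 at 16 dpp, so the lowest 12 dpp library held more than 2 times the highest 16 dpp library, and the change was -1.56 (SE 0.10, adjusted p 1.16e-05). Of 9 immature Sertoli genes 1 fell (Amh) and 2 rose (22.2%), with a median of -0.36. Krt8 (-0.51), Krt18 (-0.36), Inhba (-0.46) and Gdnf (-0.41) did not pass. Hes1, a Notch target, rose by 0.64. Nr0b1 rose by 0.27, a call lost in 14 of 20 alternatives.

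Of 18 genes listed for mature Sertoli cells 6 rose (33.3%) and 3 fell (16.7%), with a median of 0.02. Tsx, an X-linked gene described both in Sertoli cells and in spermatocytes, held 33.8, 18.5, 47.9, 14.3 and 30.02 TPM at 12 dpp and 139, 133, 144, 109.98 and 164 at 16 dpp (2.33 (SE 0.25, adjusted p 0.000208)). Which of these cells it came from was not tested. Trf, which encodes the iron carrier transferrin, held 8.31, 7.54, 6.81, 5.27 and 5.98 TPM and then 10.7, 10.9, 9.85, 10.9 and 14.5 TPM (0.67 (SE 0.14, adjusted p 0.00528)). Cldn3, a claudin of the barrier, rose by 0.84, Eppin by 0.49, Gata1 by 0.35 and Cdkn1b, the cell cycle inhibitor p27, by 0.298. Clu (-0.14) and Cldn11 (-0.07) did not pass. The members that fell were Thra, Rhox8 and Gja1, a gap junction gene (-0.36). Whether Thra marks mature Sertoli cells was not tested, and it moved in the same direction as Amh of the immature list. Thra, which encodes a thyroid hormone receptor, held 212, 274, 180.2, 265 and 229.97 TPM at 12 dpp and 121, 112, 123, 118 and 130.04 at 16 dpp (-0.92 (SE 0.101, adjusted p 0.000205)), with no overlap.

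Each Sertoli gene was also set against the median of the identity list in the same library, which removes a change shared with those genes. On that scale Amh was lower in every 16 dpp library than in any at 12 dpp, by -1.18 (SE 0.198), and so was Thra, by -0.54 (SE 0.09). Of all rows tested 0.433% did the same. Higher in every 16 dpp library were Tsx (2.71), Cldn3 (1.21), Trf (1.05), Hes1 (1.01), Eppin (0.87), Cdkn1b (0.68), Nr0b1 (0.65) and Drd4 (0.64), as were 21.3% of all rows. The other 16 of the 26 genes compared overlapped.

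**Figure D4:**
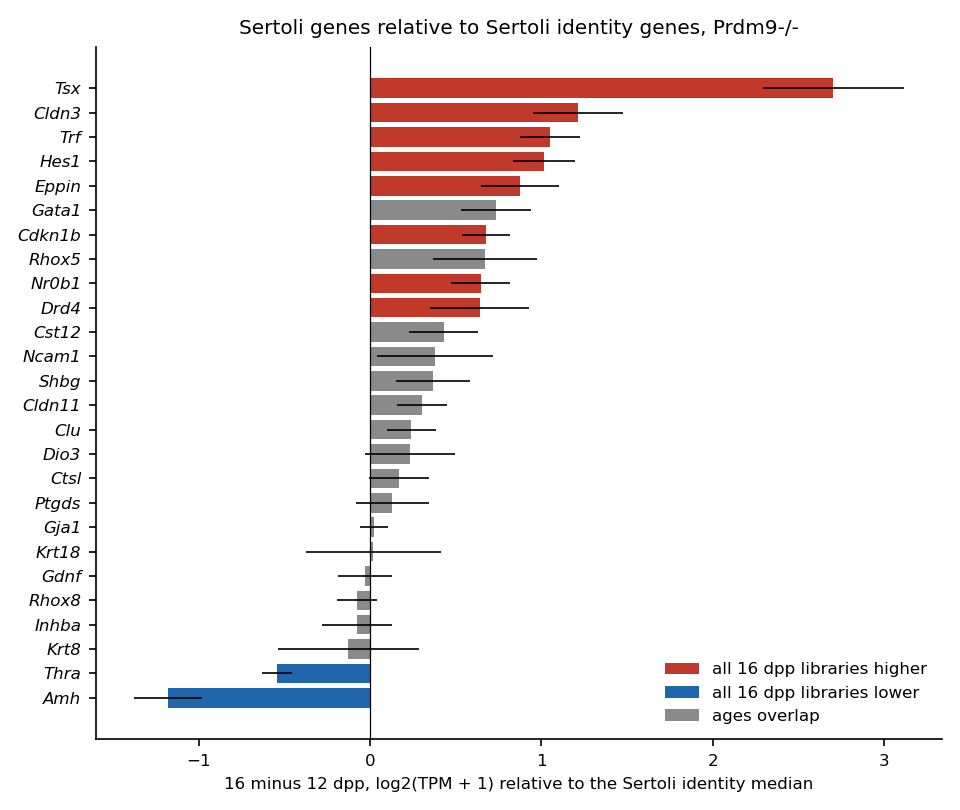
Difference between 16 and 12 dpp (horizontal axis) in log2(TPM + 1) relative to the median of the Sertoli identity list in the same library, for 26 Sertoli genes of Prdm9-/- libraries, with the standard error of the difference (n = 5 each). Red bars mark genes higher in every 16 dpp library, blue bars genes lower in every 16 dpp library and grey bars genes whose ages overlap, and Amh (-1.18) and Tsx (2.71) stand at the ends.

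Genes of the blood-testis barrier, the junctions between Sertoli cells, were mostly lower at 16 dpp. Of 18 members 9 fell (50%) and 2 rose (11.1%), with a median of -0.27, and without the 12 dpp libraries 2 and 5, 5 fell. Cxadr, an adhesion receptor, held 18.1, 26.8, 17.3, 32.1 and 22.1 TPM at 12 dpp and 10.9, 10.9, 7.87, 14.4 and 11.3 at 16 dpp (-0.99 (SE 0.18, adjusted p 0.00278)). F11r, which encodes JAM-A, held 219, 220.2, 219, 262 and 223 TPM and then 149.8, 156, 158, 165 and 163 TPM (-0.53 (SE 0.06, adjusted p 0.000283)). In both the ages did not overlap. Ocln and Gja1 fell with changes of -0.37 and -0.36. The 2 that rose were Cldn3 and Espn, an actin bundler of the Sertoli cell specialisation (0.53), while Cldn11, the main claudin of the barrier, did not pass.

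Interstitial cells were washed off but not fully, and their genes moved between the ages. Of the 11 Leydig genes tested 3 rose (27.3%) and 1 fell, with a median of 0.51. In non-mutants the median was -0.26, with 1 risen and 2 fallen, and the difference of the steps passed for no member by limma. The summed level in Prdm9-/- libraries spanned 528 to 798 TPM at 12 dpp and 499 to 961 TPM at 16 dpp. Hsd3b6, the steroid dehydrogenase of adult Leydig cells, held 11.4, 9.65, 8.73, 1.04 and 6.14 TPM at 12 dpp and 26.6, 50.6, 45.2, 32.7 and 52.3 at 16 dpp (2.53 (SE 0.41, adjusted p 0.00161)), with every 16 dpp library above every 12 dpp library. Hsd3b1, the form shared by fetal and adult cells, held 59.7, 139, 35.5, 80.5 and 30.8 TPM and then 51.4, 98.6, 149, 122 and 96.7 TPM and did not pass (0.71 (SE 0.37, adjusted p 0.216)). Insl3 rose by 1.35 and Lhcgr, the receptor for luteinizing hormone, by 0.63. Hsd17b3, which in fetal testes is made by Sertoli cells and in adult testes by Leydig cells, fell from 16.9, 13.9, 16.96, 41.3 and 19.3 TPM to 9.28, 9.08, 8.95, 9.72 and 9.91 TPM (-1.02 (SE 0.22, adjusted p 0.00815)), and the value of 12 dpp replicate 4 lay far above the rest. Star (-0.22) and Cyp17a1 (-0.62) did not pass. Sult1e1 was at or below 0.21 TPM in all 10 libraries.

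Macrophage genes rose. Of 15 tested 10 rose (66.7%) and none fell by limma, with a median of 1.005, and the summed level was 78.1 to 188 TPM at 12 dpp and 175 to 331 TPM at 16 dpp, so the ranges overlapped. Without 12 dpp replicate 5, 7 rose, and without replicates 2 and 5, 10 rose. C1qa, a complement subunit of tissue macrophages, held 15.7, 19.2, 3.92, 6.65 and 6.48 TPM at 12 dpp and 19.9, 23.3, 37.3, 28.8 and 36.8 at 16 dpp (1.57 (SE 0.34, adjusted p 0.00812)). Adgre1, which encodes F4/80, rose by 1.09 and Mrc1, a mannose receptor, by 1.005. The MHC class II genes H2-Ab1 and Cd74 rose by 0.95 and 1.31. In the interferon response list 2 of 10 rose (20%), Irf7 by 0.97 and Oasl2 by 0.504. All 5 red cell genes tested were higher on average at 16 dpp, with a median of 0.64 (-0.18 in non-mutants), but none was called by limma. Their summed level was 152 to 494 TPM at 12 dpp and 191 to 720.1 TPM at 16 dpp. It was highest at 16 dpp in replicates 3 and 5 and at 12 dpp in replicate 2, the libraries with the highest macrophage sums of their age. The part of blood cells in the macrophage values and that of interstitial cells in the Leydig and interferon values was not tested.

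Other somatic lists held few changes. In the peritubular myoid list, the smooth muscle around the tubules, 1 of 13 rose (Actg2, 0.87) and 1 fell (Ptch1, a hedgehog receptor, -0.43). This is 7.69% each, near the shares of all rows, and the calls were lost in 8 and 6 of 20 alternatives. Acta2 held 619 ± 107 TPM at 12 dpp and 695 ± 169 at 16 dpp (SD, n = 5 each) and did not pass. In the stromal list none of 12 was called by limma, and in the endothelial list 3 of 13 fell (23.1%). These were Erg, Kdr and Cdh5, with changes of -0.55, -0.503 and -0.32. The calls of Kdr and Cdh5 were lost in 11 and 14 of 20 alternatives. None of 14 genes that respond to tissue dissociation was called.

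Cholesterol genes were lower at 16 dpp, 5 of 15 (33.3%) with none higher by limma and a median of -0.18. Srebf2, the master regulator of the pathway, held 111, 105, 103, 103 and 111 TPM at 12 dpp and 75.8, 70.5, 72.9, 68.4 and 54.6 at 16 dpp (-0.64 (SE 0.08, adjusted p 0.000479)), and the ages did not overlap. The synthesis enzyme gene Hmgcs1 (-0.18) did not pass. Of 12 messengers of the mitochondrial genome 6 rose (50%), with a median of 0.27, which was 0.11 with quantile normalization. Without the 12 dpp libraries 2 and 5, 1 rose and 2 cholesterol genes fell. With single libraries left out, 3 messengers rose without 12 dpp replicate 1, 4 or 5 or 16 dpp replicate 2 or 3. The cholesterol count was 2 without 12 dpp replicate 5 and 3 without 12 dpp replicate 1 or 16 dpp replicate 4.

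The largest rises held genes of several cell types. Apart from Hsd3b6, Kctd19, Tsx, Fabp9 and Zfy2, they were Car7, Aqp8, Gml, Bbox1, C2cd4b, Uckl1os and Dmrtc1b. Car7, a carbonic anhydrase, held 6.67, 2.91, 8.78, 1.36 and 3.92 TPM at 12 dpp and 68.2, 22.9, 36.3, 24.4 and 25.4 at 16 dpp (2.71 (SE 0.37, adjusted p 0.000687)). Aqp8, a water channel of Sertoli cells, held 1.94, 1.13, 1.43, 0.21 and 1.5 TPM and then 8.32, 8.58, 13.5, 16.4 and 16.04 TPM (2.61 (SE 0.25, adjusted p 0.000128)). Kctd19, a protein needed to complete meiosis, held 3.91, 0.85, 5.05, 3.05 and 3.06 TPM at 12 dpp and 19.8, 22.2, 15.1, 16.6 and 27.2 at 16 dpp (2.41 (SE 0.27, adjusted p 0.00026)). All 3 had ages that did not overlap, which the rule for naming them required. Bbox1, the last enzyme of carnitine synthesis, rose by 2.41, Gml by 2.503, C2cd4b by 2.32 and Dmrtc1b, an X-linked member of the DMRT family, by 2.03. Gml has a similar neighbour, Gml2, and Uckl1os (2.05) lies antisense to another gene, so both are uncertain where strand or copies matter.

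The largest falls were in Sel1l3, Epha2, Lpcat2, Slc1a6, Lpl, Cadm3, Cadps, Hrk, Hoxb9, Tnfrsf12a, Ins2 and Pdgfrl. Sel1l3 held 45, 84.98, 52.5, 77.3 and 71.6 TPM at 12 dpp and 11.1, 11.02, 6.02, 8.74 and 7.59 at 16 dpp (-2.76 (SE 0.19, adjusted p 1.89e-05)), the largest fall of all named genes. Epha2, a receptor for ephrins, held 32.5, 24.3, 28.1, 72.4 and 50.7 TPM and then 9.73, 7.37, 4.9, 6.69 and 3.91 TPM (-2.44 (SE 0.28, adjusted p 0.000296)), with the highest 12 dpp value in replicate 4. Slc1a6, a glutamate transporter, held 17.7, 27.2, 19.6, 32.8 and 23.9 TPM at 12 dpp and 5.33, 4.95, 4.5, 5.12 and 5.88 at 16 dpp (-2.01 (SE 0.15, adjusted p 3.09e-05)). Lpcat2, an acyltransferase of phospholipids, and Lpl, lipoprotein lipase, fell with changes of -2.24 and -1.78. Tnfrsf12a, the receptor for TWEAK, held 217, 133, 244, 304 and 269 TPM and then 71.6, 78.7, 64.2, 68.7 and 76.7 TPM (-1.64 (SE 0.17, adjusted p 0.000173)). Hrk, a BH3-only protein, fell by 1.66 and Hoxb9, a homeobox gene, by 1.65. None of these 12 is a member of a list used here.

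The steps of the 2 genotype classes were compared in a fit of all 20 libraries, Prdm9-/- and non-mutant at both ages. By the header number read as the litter, the classes are littermates, 1 library of each from each of 10 litters. This fit takes no account of litter. In it 1540 rows rose (8.01%) and 1380 fell (7.18%) in mutants, while 2021 rose (10.5%) and 3007 fell (15.6%) in non-mutants. Calls shared by both steps in the same direction numbered 2030, which is 69.5% of the mutant calls and 40.4% of the non-mutant calls, and 3 rows were called in opposite directions. The difference between the steps itself passed the test in 187 of 19221 rows (0.973%), with a lower step in mutants in 172 (0.895%) and a higher step in 15 (0.0780%). These counts depend on single libraries: at 16 dpp, 69 rows differed without Prdm9+/- replicate 2, 101 without Prdm9+/- replicate 3, 110 without Prdm9+/+ replicate 2 and 297 without Prdm9+/- replicate 1. Without the 12 dpp Prdm9-/- replicate 5, 143 differed, and without replicate 2, 182. With litter as a random effect 532 differed, 397 with a lower and 135 with a higher step in mutants.

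Rows with a lower step in mutants held many genes of pachytene and of the sperm tail. In the pachytene list, 28 members could be compared, 16 had a lower step in mutants (18 with litter as a random effect) and none a higher one, and the median step was 0.54 in mutants and 2.29 in non-mutants. In the axoneme list, 14 of 34 had a lower step (20 with litter), with medians of 0.15 and 1.88. The filter of this fit, over 1 TPM in at least 5 of the 20 libraries, could be passed through the non-mutant 16 dpp libraries alone. By the filter on the 10 Prdm9-/- libraries, 23 pachytene and 21 axoneme members passed. Members admitted only through the group where they are high have a lower step in mutants by selection. The counts and medians above thus follow in part from the filter. Ldhc in non-mutants held 1.66 to 4.27 TPM at 12 dpp and 41.97 to 602 at 16 dpp, and the difference of the steps was -4.81 (SE 0.705, adjusted p 0.00108, limma). Piwil1 in non-mutants held 2.87 to 4.47 TPM and then 18.9 to 135 TPM, with a difference of -3.69 (SE 0.48, adjusted p 0.000325). Fabp9, which rose in mutants, still differed by -3.26 (SE 0.57, adjusted p 0.00411), with 76.8 to 416 TPM in non-mutants at 16 dpp.

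The recombination and synaptonemal complex lists had similar medians in both classes. For recombination the median step was 0.47 in mutants and 0.49 in non-mutants, with 18 of 33 rising in non-mutants, and no member differed by limma. For the synaptonemal complex list the medians were 0.64 and 0.79, and again no member differed, nor did any member of either list with litter as a random effect. The difference of the steps was -0.15 (SE 0.28) for Hormad1, -0.12 (SE 0.25) for Sycp3 and -0.298 (SE 0.27) for Spo11, and each lies near its own standard error or below it. Larger differences, not called, stood in Cntd1 at -0.89 (SE 0.32, adjusted p 0.317, limma) and Ccdc155 at -0.52 (SE 0.27). Rad51ap2 (0.23) and Dmc1 (0.22) went the other way. The median difference was -0.011 for recombination and -0.053 for the synaptonemal complex list. In the Sertoli identity list the median steps were -0.28 in mutants and -0.33 in non-mutants. Amh fell in both, with a difference of -0.43 (SE 0.15, adjusted p 0.317, limma) that passed with litter as a random effect (adjusted p 0.0429) and in no other of 26 alternatives, and Tsx rose in both, with a difference of 0.31 (SE 0.43, adjusted p 0.903).

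Of the 15 rows with a higher step in mutants 6 were X-linked and 1 was Y-linked, of 666 and 13 such rows in the mutant step test. With litter as a random effect 41 of 135 were X-linked and 3 were Y-linked. The median step of X-linked rows was 0.07 in mutants and -0.14 in non-mutants. Autosomes also had negative medians in non-mutants, from -0.038 (chromosome 17) to -0.106 (chromosome 18). The median difference of the steps was 0.22 for X-linked rows and 0.07 for all rows. In non-mutants 44 of 666 X-linked rows rose and 167 fell, where 10.5% of all rows rose and 15.6% fell. The 666, also used for the X-linked medians, passed the filter on the 10 Prdm9-/- libraries. The values for all rows are over the 19221 rows of this fit. Nxt2 in non-mutants held 12.8 to 19.98 TPM at 12 dpp and 16.1 to 21.2 at 16 dpp, and the difference was 0.83 (SE 0.19, adjusted p 0.0341, limma). Pet2 in non-mutants held 9.99 to 17.4 TPM and then 15.97 to 19.5 TPM, with a difference of 1.13 (SE 0.23, adjusted p 0.0168). Zfy1 in non-mutants held 2.73 to 4.16 TPM and then 4.99 to 5.56 TPM, with a difference of 1.13 (SE 0.26, adjusted p 0.033). For Zfy2 the difference of 1.202 (SE 0.398) did not pass (adjusted p 0.248), but did with litter (adjusted p 0.0377). The calls of Nxt2 and Zfy1 were lost in 16 and 13 of 26 alternatives, and that of Pet2 in none. Prame, Srgap1 and Rbmx also had higher steps in mutants, by 1.05, 0.81 and 0.58, calls lost in 1, 15 and 22 of 26 alternatives.

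**Figure D5:**
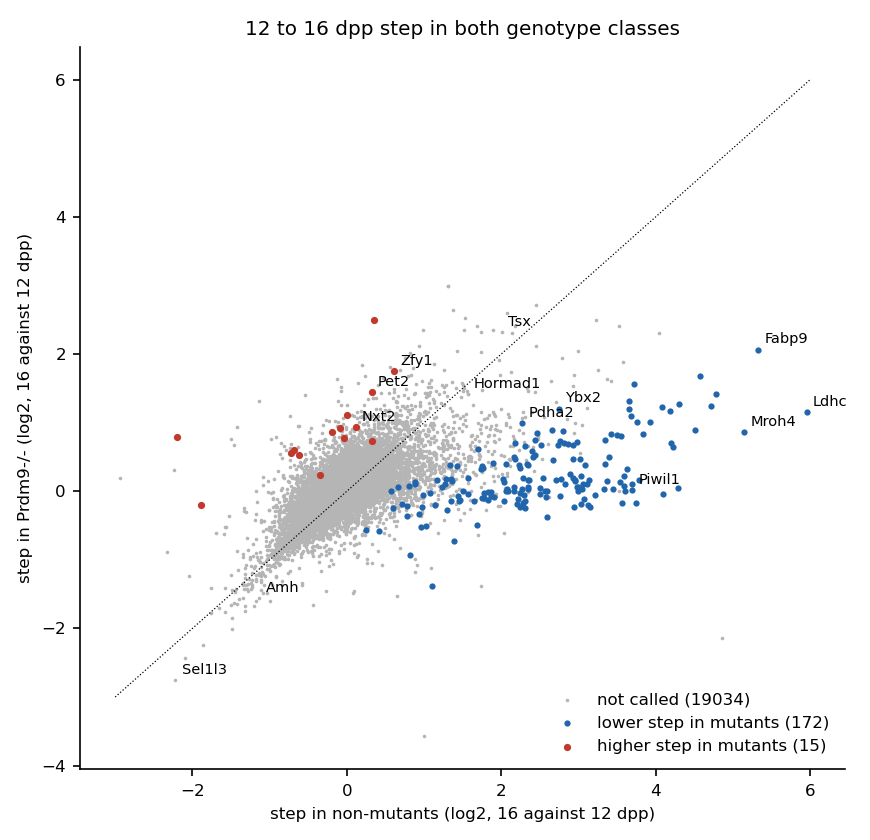
Step from 12 to 16 dpp in Prdm9-/- libraries (vertical axis) against the step in non-mutants (horizontal axis), both as log2 fold change of TPM + 1, for 19221 rows. Blue points had a lower step in mutants (172), red points a higher one (15), and the dotted line marks equal steps. Ldhc, Mroh4 and Piwil1 lie far to the right and low, while Amh, Sel1l3 and Hormad1 lie near the line.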

How the data were processed

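Polyadenylated RNA was sequenced from germ cells enriched from mouse testes, and the 10 Prdm9-/- libraries at 12 and 16 dpp were used, with 10 non-mutants for reference. The authors deposited TPM values per gene. The submitters' processing notes name Bowtie 1.0.0, RSEM 1.2.8 and the build GRCm38 (mm10), with no role given, and whether read strand was counted is not given in the sources used here. The table as held has 65534 rows (38906 of Ensembl, 26523 of NONCODE and 105 for piRNA loci) and stops within the NONCODE identifiers. In the 10 libraries 3.448 to 3.857% of the TPM total lies outside it. GENCODE M21 gave names and coordinates for 37709 rows, and RefSeq gave the promoters. TPM keep no depth, so the number of animals and their spread set the precision.

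Rows over 1 TPM in at least 5 of the 10 libraries were tested on log2(TPM + 1) with limma-trend (limma 3.58.1, R 4.3.3), with no further scaling. A row was called where its p, adjusted over all rows after Benjamini and Hochberg, was under 0.05. The difference of the steps was tested in a 4-group fit of 20 libraries, on rows over 1 TPM in at least 5 of them. The 29 gene lists hold 559 entries, of which 554 were matched. The members and lists were chosen with earlier results of these data known. Lists are described by counts, shares and medians, to be read against those of all rows, without a test of their own. Named genes are Prdm9, the 12 largest rises and the 12 largest falls among called genes whose mean was 1 TPM or more and whose ages do not overlap, up to 4 called members per list and direction, the 6 largest differences of the steps in each direction, and set markers. Predicted genes, pseudogenes and clone names stayed in the counts. Some list members are counted but not reported by name here. Members named as not passing the test, and other list members given with their value, were added after their values were seen. Of the rows tested, 57 are identical to another row in all 10 libraries, 12 of them called. The test was checked on simulated data. Replicate numbers were not used as pairs. Alternatives changed the pseudocount, filter, scaling, libraries fitted, block, weights and fold threshold.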

Additional observations from a re-analysis of the deposited data

Results flagged for a closer look

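In 17 of 292 groups of 5 libraries, 2 for each of 146 named genes, 1 library lay far from the other 4 by Dixon's test, and chance gives about 1 in 20. At 12 dpp, replicate 4 was highest for Cfap43 (33.0 TPM, next 14.6), F11r (262 TPM, next 223), Hsd17b3 (41.3 TPM, next 19.3) and Rbmx (36.3 TPM, next 26.8). Replicate 5 was highest for Prdm9 (19.2 TPM, next 8.16), Ret (21.1 TPM, next 16.8) and Sox9 (87.9 TPM, next 82.1). Replicate 2 was lowest for Uckl1os (0 TPM, next 2.77), Ythdc2 (15.9 TPM, next 20.4) and Zfy1 (1.27 TPM, next 3.20), and replicate 3 was highest for mt-Nd2 (3627 TPM, next 2878). At 16 dpp, replicate 5 was highest for Gml (85.5 TPM, next 56.9), Rsph1 (122 TPM, next 82.1) and Trf (14.5 TPM, next 10.9). Replicate 3 was lowest for Cfap43 (5.6 TPM, next 6.61) and Mov10l1 (99.4 TPM, next 119), and highest for Espn (192 TPM, next 171).

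For 16 named genes the 12 to 16 dpp step differed between Prdm9-/- and non-mutant libraries (limma, adjusted over 19221 rows). It was lower in mutants, on the log2 scale, for Ldhc by -4.81, Mroh4 by -4.29, Fbp1 by -4.14, Adam5 by -3.92, Smpd5 by -3.73, Piwil1 by -3.69, Fabp9 by -3.26, Cfap57 by -1.84, Ybx2 by -1.54 and Pdha2 by -1.27. It was higher in mutants for Zfy1 by 1.13, Pet2 by 1.13, Prame by 1.05, Nxt2 by 0.83, Srgap1 by 0.81 and Rbmx by 0.58. Adjusted p ran from 0.000141 (Mroh4) to 0.0476 (Rbmx). The calls of Cfap57, Pdha2 and Ybx2 were lost in 20, 19 and 8 of 26 alternatives. Those of the other genes with a lower step were lost in none in which they had a value. Fbp1 was over 1 TPM only in the non-mutant 16 dpp libraries and so was tested only through the group where it is high. Adam5 likewise passed the filter only through that group. It reached 0.93 TPM in Prdm9-/- libraries and 1.03 in 12 dpp non-mutants, against 4.01 to 74.5 in 16 dpp non-mutants.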

How the results depend on the processing

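All 3083 calls kept their direction in each of the 20 alternatives in which they had a value, and 1665 to 3030 of them stayed called. Of 128 called named genes 89 kept their call throughout, and none reversed. Without any filter on level 948 rows fell. A call that also required a change over 1 on the log2 scale left 310 rows, 222 risen and 88 fallen. Without the 12 dpp libraries 2 and 5, an alternative added after seeing the data, 1789 were called, 1068 risen and 721 fallen. With 1 library left out, 2108 to 3007 were called, 1088 (without 16 dpp replicate 5) to 1650 risen and 1020 to 1528 fallen. Replicate numbers pair no animals: the deviations of same-numbered libraries correlated at 0.075, -0.163, -0.182, -0.016 and -0.122, none best with its own number. A replicate block gave 2401 calls, 1241 risen and 1160 fallen, and 6 rows with a higher step in mutants. A litter effect could not be fitted in the 10 libraries, which by the header number come from 10 litters. For the difference of the steps, litter as a random effect gave 532 rows, 135 higher and 397 lower in mutants, and a pseudocount of 0.1 gave 9 higher. With 1 library left out, 69 to 297 rows differed, 7 to 28 higher and 62 to 269 lower, and the cause was not tested. List medians changed sign in some alternative for p53 targets, mature Sertoli and stromal genes. Depth is unknown, and 11 pachytene and 28 axoneme genes lay below the filter.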
